A study of Mus musculus with 21 samples.

Results

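Adenoviral Cre was given to mouse embryonic fibroblasts (MEFs) of 2 lines in which a different telomere gene was floxed, and the change that Cre made in the *Terf1* F/F line was set against the change it made in an *Rtel1* F/F line that carried the RTEL1 C1252A/C1255A mutant. The quantity examined for each gene was the difference of differences, here called the interaction: the log2 fold change of +Cre over +GFP cells in the *Terf1* F/F line, minus the same log2 fold change in the mutant line. It rests on 12 of the 21 RNA-seq libraries, 3 in each of 4 groups. The groups were *Terf1* F/F MEFs infected with a GFP adenovirus, the same line infected with a Cre-GFP adenovirus, *Rtel1* F/F MEFs transduced with RTEL1 C1252A/C1255A from a pBabe retroviral vector and infected with GFP, and that transduced line infected with Cre-GFP. All were collected 96 h after infection and none received the G4 ligand TMPyP4. Each genotype was 1 cell line, and the lines differed in floxed gene and in vector together, so that deleted gene, line of origin and vector cannot be told apart. The labels call the libraries biological replicates without saying that they were separate cultures or infections, so p-values measure the spread between libraries. That spread was estimated over all 21 libraries and not over these 12 alone.

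TRF1, the protein of *Terf1*, is a shelterin subunit that binds the double-stranded repeats of telomeres and is needed for their replication. RTEL1 is a helicase that unwinds telomeric loops and G-quadruplex DNA, and its cysteine pair at the C terminus lies in a metal-binding domain that docks on TRF2, another shelterin subunit, so the mutant is used to separate the telomeric role of the helicase from its role in genome-wide replication. Fibroblasts answer cytosolic nucleic acids by making type I interferon, which acts through STAT and IRF transcription factors on a large set of antiviral genes, and they answer telomere damage through p53.

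*Terf1* followed the labels, whereas loss of the floxed *Rtel1* alleles could not be read from these counts. *Terf1* (chromosome 1, 15805546 to 15844052 of GRCm38, the assembly behind mm10) had 27.9, 29.6 and 30.3 CPM (read counts scaled to the normalized library size) with GFP in its floxed line, and 5, 2 and 1 counts with Cre. Pooled over libraries, 0.213% of the +GFP share of *Terf1* reads was left (95% interval 0.0919 to 0.42, counting error only). In the mutant line *Terf1* had 34.8, 36.9 and 33.3 CPM under GFP and 33.1, 33.8 and 33.3 CPM under Cre. *Rtel1* (chromosome 2, 181319711 to 181356616) had 338, 328 and 331 CPM in the mutant line with GFP and 283, 253 and 257 CPM under Cre, a count in which transcripts of the vector and of the floxed alleles cannot be told apart, and 49.1, 47.9 and 50.04 CPM against 44.2, 43.7 and 49.7 CPM in the *Terf1* F/F line. The 12 libraries held between 36786352 and 51938593 counts. Fibroblast markers were expressed in both lines, with *Col1a1*, *Vim* and *Fn1* at or above 170.5 TPM (a scale corrected for transcript length) in every library, but *Thy1* was between 270.4 and 340.4 TPM in the *Terf1* F/F line and between 0.07 and 0.54 TPM in the mutant line. Of 9 macrophage and leukocyte markers, whose summed level was between 9.71 and 16.48 TPM, the defining *Ptprc*, *Adgre1* and *Tyrobp* did not exceed 0.01 TPM in any library, while *Cd68* was between 2.29 and 11.63 TPM and *Cd14* between 4.30 and 9.17 TPM. Before any Cre the lines already differed in 8023 genes, 58.5% of the genes tested.

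More genes passed the test with Cre in the *Terf1* F/F line than in the mutant line. In the *Terf1* F/F line 469 of 13719 tested genes were called (3.42%), 364 with higher (2.65%) and 105 with lower levels (0.765%), by edgeR's quasi-likelihood test at an adjusted p of at most 0.01. In the mutant line 150 were called (1.09%), 72 higher (0.525%) and 78 lower (0.569%). The interaction itself was called for 85 genes (0.62%), of which 75 were higher in the *Terf1* F/F line than in the mutant line (0.547%) and 10 were lower (0.0729%). Of the 75, 54 had been called higher by Cre in the *Terf1* F/F line and not called in the mutant line, 17 had been called lower by Cre in the mutant line and not called in the *Terf1* F/F line, and 4 were called in neither line on its own. The median absolute interaction of the 85 genes was 0.89 on the log2 scale, and 31 reached 1. No gene was called in opposite directions in the 2 lines. With a fit restricted to the 12 libraries the interaction called 11 genes, 10 higher and 1 lower, and none of the 85 genes had an adjusted p above 0.0664 in that fit. With each of the 12 libraries left out in turn, between 27 and 89 genes were called, and 25 of the 85 were called in every such fit.

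**Figure D1:**
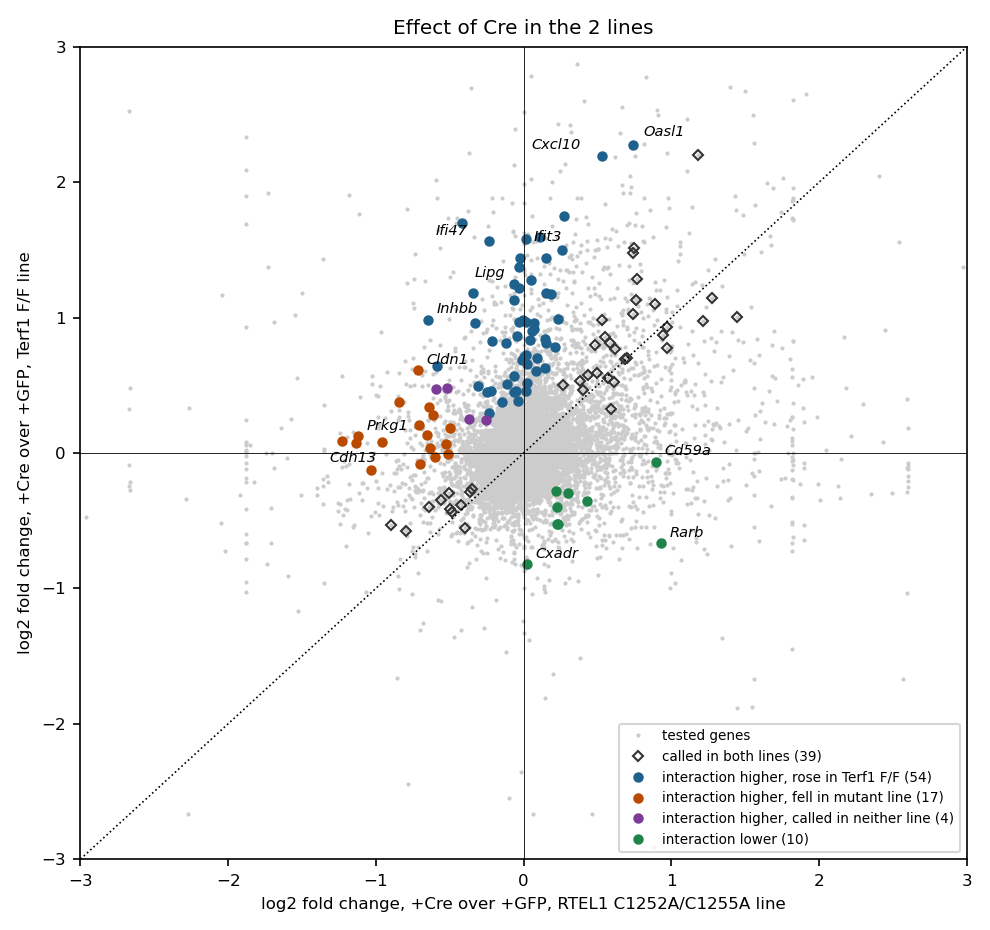
Log2 fold change of +Cre over +GFP cells in the RTEL1 C1252A/C1255A line (x axis) and in the *Terf1* F/F line (y axis) for 13676 tested genes, each a point, with 43 genes outside the axes, *Terf1* among them, not drawn. The 54 blue points lie above 0 on the y axis, the 17 orange points lie left of 0 on the x axis, the open diamonds are the 39 genes called in both lines, and the dotted line marks equal change.

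Lists of interferon-responsive genes held 17 of the 85 genes called in the interaction. Of the 85, 21 belonged to any list. Across 6 lists of interferon-stimulated genes, interferon-inducible GTPases, nucleic acid sensors, interferon signaling, MHC class I and chemokines, 143 members were tested, 17 were called higher in the interaction and 0 lower. Over all genes tested the interaction was called higher for 0.547%. With a fit of the 12 libraries alone, 2 of the 17 were called. With Cre, 99 of the 143 were called higher in the *Terf1* F/F line, against 2.65% of all genes tested. In the mutant line 2 were called higher, against 0.525%. A member not called was not shown to be unchanged. The median log2 fold change of the 143 was 1.02 in the *Terf1* F/F line and 0.18 in the mutant line. The median interaction of the 143 was 0.70, against -0.01 over all genes tested. These lists were chosen with earlier results of these data known, and their counts are a description.

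The antiviral effectors are made in response to interferon and block viral RNA and protein. *Ifit3*, which belongs to a family that binds foreign RNA, had 413, 446 and 518 CPM in *Terf1* F/F cells with GFP and 1489, 1622 and 1021 CPM under Cre. In the mutant line *Ifit3* had 5.71, 5.13 and 6.08 CPM under GFP and 5.51, 6.55 and 5.05 CPM under Cre. The *Terf1* F/F groups did not overlap, the mutant groups did, and the interaction of *Ifit3* was 1.57 ± 0.21 (log2 fold change ± SE, edgeR adjusted p = 0.000703). *Ifit2*, of the same family, had 169, 187 and 206 CPM against 524, 581 and 353 CPM in *Terf1* F/F cells and 49.5, 55.9 and 53.01 CPM against 47.6, 56.2 and 51.4 CPM in the mutant line. Its interaction was 1.40 ± 0.19 (adjusted p = 0.000752). *Ifit3b*, a near copy of *Ifit3* with which it may share reads, had an interaction of 1.48 ± 0.23. *Oasl1*, an oligoadenylate synthetase-like protein that represses translation of *Irf7*, had 31.5, 32.4 and 33.5 CPM under GFP and 159.6, 164 and 149 CPM under Cre in *Terf1* F/F cells, and 2.22, 1.38 and 2.10 CPM under GFP against 3.59, 2.53 and 3.47 CPM under Cre in the mutant line. Every +Cre library of *Oasl1* was above every +GFP library of its line, and the interaction was 1.54 ± 0.23 (adjusted p = 0.00164).

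Further effectors moved less. *Parp12*, an antiviral ADP-ribosyltransferase, had an interaction of 0.95 ± 0.12, *Znfx1*, a helicase that senses viral RNA at mitochondria, of 1.03 ± 0.13, and *Trim25*, the ubiquitin ligase that activates the RNA sensor RIG-I, of 0.48 ± 0.09. *Ube2l6*, the enzyme that conjugates ISG15 and a gene outside the lists, had 68.4, 77.3 and 77.2 CPM against 187, 201 and 141 CPM in *Terf1* F/F cells, and 9.80, 12.8 and 11.2 CPM against 9.84, 11.3 and 11.1 CPM in the mutant line. In the mutant line *Ube2l6* did not separate by infection, and its interaction was 1.31 ± 0.16. Among 45 tested interferon-stimulated genes, 43 rose in the *Terf1* F/F line, 0 were called in the mutant line and 7 were called in the interaction. Over all genes tested 2.65% rose in the *Terf1* F/F line, 1.09% were called in the mutant line and 0.62% in the interaction. *Isg15* itself, a ubiquitin-like modifier, rose in *Terf1* F/F cells by 0.87 ± 0.15 and had 8.03, 5.05 and 8.88 CPM against 10.49, 10.3 and 13.1 CPM in the mutant line, and its interaction of 0.25 (95% interval -0.23 to 0.72) was not called. That value was the lowest among 6 listed genes of the ISG15 system. All 6 interactions were positive, with a median of 0.96, and 0 were called.

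The interferon-inducible GTPases destroy the vacuoles of intracellular pathogens. *Ifi47* (chromosome 11, 49076587 to 49096987) had 37.9, 44.1 and 45.2 CPM in *Terf1* F/F cells with GFP and 139, 145 and 93.1 CPM under Cre, and 4.48, 5.78 and 5.21 CPM against 3.86, 5.15 and 4.15 CPM in the mutant line. The *Terf1* F/F groups were apart by at least the 93.1 against 45.2 CPM of their nearest libraries, whereas the mutant groups overlapped. The interaction of *Ifi47* was 1.80 ± 0.25 (adjusted p = 0.000927), the highest of any called gene with a mean of at least 5 CPM in one or more of the 4 groups. *Gbp2*, a guanylate-binding protein, had 61.9, 65.2 and 71.1 CPM against 193, 201 and 144 CPM in *Terf1* F/F cells and an interaction of 1.29 ± 0.24. Of 16 tested GTPases, 14 rose in the *Terf1* F/F line, against 2.65% of all genes tested. In the mutant line 0 GTPases were called, a count that 1.09% of all genes tested does not set apart.

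Among signaling components, 3 of 9 tested STATs and IRFs were called in the interaction, against 0.62% of all genes tested. *Stat2*, a transcription factor of type I interferon signaling, had 226, 221 and 265 CPM in *Terf1* F/F cells under GFP and 439, 449.7 and 385 CPM under Cre. In the mutant line *Stat2* stood at 15.7, 16.7 and 16.1 CPM under GFP and 14.9, 16.8 and 18.2 CPM under Cre. The groups of *Stat2* were apart in the *Terf1* F/F line and overlapped in the mutant line, with an interaction of 0.80 ± 0.13 (adjusted p = 0.00204). *Irf1*, a regulator that interferon induces, had an interaction of 0.70 ± 0.13. Of 9 tested STATs and IRFs, 6 rose in the *Terf1* F/F line. Of the 7 receptors and kinases 0 were called in either line. Over all genes tested 3.42% were called in the *Terf1* F/F line and 1.09% in the mutant line, so this count does not set them apart. *Ifnar1*, a subunit of the type I receptor, had an interaction of -0.04 (95% interval -0.23 to 0.15). Among sensors of nucleic acid, 7 of 7 tested rose in the *Terf1* F/F line, against 2.65% of all genes tested. In the interaction 0 were called, against 0.62%, but all 7 were positive, with a median of 0.99. Each of the 7 had an unadjusted edgeR p under 0.05, as had 10.3% of all genes tested. *Ifih1*, which encodes the RNA sensor MDA5, had 114.8, 117 and 133 CPM against 321, 328 and 262 CPM in *Terf1* F/F cells and 7.21, 4.80 and 6.76 CPM against 8.997, 9.99 and 9.25 CPM in the mutant line, and an interaction of 0.74 ± 0.17 (adjusted p = 0.038), which missed the threshold. *Adar*, which edits double-stranded RNA and restrains MDA5, had 163, 154 and 169 CPM against 275, 263 and 257 CPM, a mutant-line change of 0.00 ± 0.07 and an interaction of 0.70 ± 0.09 (adjusted p = 0.000618).

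The 3 called chemokines differed less between the lines before Cre than most interferon-stimulated genes. *Cxcl10* (chromosome 5, 92346638 to 92348889), which attracts activated T cells, had 98.8, 120.1 and 119 CPM under GFP and 535, 629 and 386 CPM under Cre in *Terf1* F/F cells, and 83.5, 74.9 and 91.0 CPM under GFP and 101, 130.0 and 129 CPM under Cre in the mutant line. Both lines had all +Cre libraries above all +GFP libraries, but the mutant change of 0.53 ± 0.16 was not called (adjusted p = 0.088), and the interaction was 1.67 ± 0.23 (adjusted p = 0.000895). *Ccl2*, which attracts monocytes, had 55.1, 68.0 and 63.1 CPM against 169.8, 213 and 143 CPM in *Terf1* F/F cells and 54.0, 58.0 and 61.2 CPM against 54.7, 74.2 and 78.6 CPM in the mutant line. *Ccl2* had an interaction of 1.24 ± 0.21 and *Ccl7*, its neighbour in function, of 1.48 ± 0.26. With GFP, the *Terf1* F/F line was above the mutant line by 0.44 ± 0.16 for *Cxcl10*, whose +GFP libraries did not overlap between the lines, by 0.11 ± 0.15 for *Ccl2* and by 0.19 ± 0.19 for *Ccl7* on the log2 scale. In the MHC class I list 15 of 21 tested members were called higher in the *Terf1* F/F line, against 2.65% of all genes tested. In the mutant line 0 were called, against 1.09% of all genes tested, with a median log2 fold change of 0.17. *Psme1*, a subunit of the proteasome activator PA28, was the member called in the interaction (0.66 ± 0.12).

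**Figure D2:**
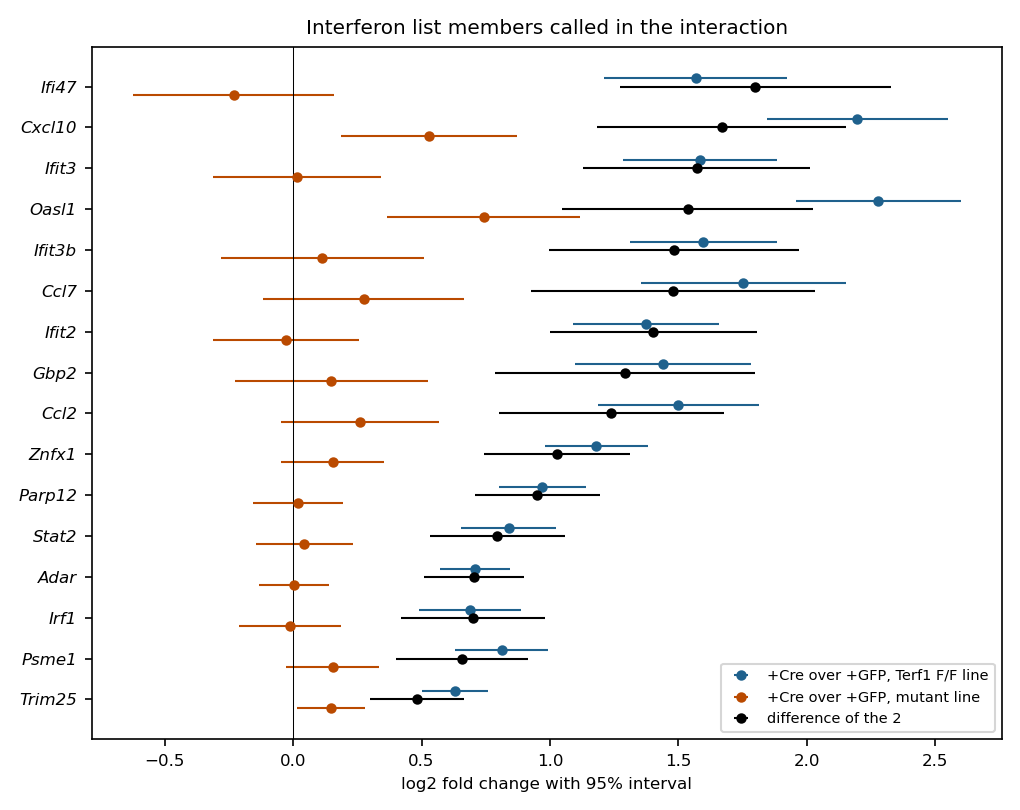
Log2 fold change with its 95% interval (x axis) for 16 of the 17 interferon list members called in the interaction (rows), in the *Terf1* F/F line (blue), in the mutant line (orange) and as the difference of both (black). The black points run from 0.48 for *Trim25* to 1.80 for *Ifi47*, and the orange points from -0.23 for *Ifi47* to 0.74 for *Oasl1*.

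The starting levels bear on how these genes can be compared. All 45 interferon-stimulated genes were already higher in the *Terf1* F/F line with GFP, by a median log2 difference of 5.90, and their summed level was between 9370 and 10140 TPM in *Terf1* F/F +GFP, between 15410 and 20130 TPM in *Terf1* F/F +Cre, between 338.1 and 389.2 TPM in mutant +GFP and between 427.0 and 433.3 TPM in mutant +Cre libraries. Of the 143 list members, 99 had a mean of at least 1 CPM in both mutant groups, and among these 63 rose in the *Terf1* F/F line, 2 were called in the mutant line and 17 were called in the interaction. Their median log2 fold change was 0.83 in the *Terf1* F/F line and 0.15 in the mutant line. Of the 44 members below that level, 36 rose in the *Terf1* F/F line and 0 were called in the interaction, and for 10 of them no mutant library held more than 3 counts. In all 17 called members replicate 3 was the lowest of the *Terf1* F/F +Cre libraries, and without it 28 members were called in the interaction. In these bulk libraries a smaller share of responding cells and less RNA per cell cannot be told apart.

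The promoters of several of these genes hold the interferon-stimulated response element, the site of an interferon-activated transcription factor complex. The core GAAANNGAAA, also searched as TTTCNNTTTC on the other strand, was found in 1131 of 32851 RefSeq promoters of GRCm38.p6 (3.44%), each running from 250 bases before to 50 after an annotated transcript start. Of the 54 genes that rose in the *Terf1* F/F line and were called in the interaction, 44 had a promoter in the table and 12 of these held the core (27.3%), against 3.7% of all genes tested and 0 of 11 with a promoter among the genes that fell in the mutant line. Among the genes lower in the interaction it was 1 of 5 with a promoter (20%), *Cd59a*. No core was found in the promoters of the called list members *Ifi47*, *Ifit2*, *Oasl1*, *Irf1*, *Adar*, *Parp12*, *Trim25* and *Znfx1*. The 250 bases before the start are shown for *Ifit3*, *Stat2* and *Cxcl10*, an effector, a signal transducer and a secreted product that rose in *Terf1* F/F cells, and for *Inhbb*, a gene of no interferon list. All of the genes shown hold the core. Their sequences read 5′ to 3′ on the gene's strand with the core in capitals. The *Ifit3* sequence is chr19:34583279-34583528 (+), that of *Stat2* is chr10:128270248-128270497 (+), that of *Cxcl10* is chr5:92348890-92349139 (-) and that of *Inhbb* is chr1:119422249-119422498 (-).
Ifit3: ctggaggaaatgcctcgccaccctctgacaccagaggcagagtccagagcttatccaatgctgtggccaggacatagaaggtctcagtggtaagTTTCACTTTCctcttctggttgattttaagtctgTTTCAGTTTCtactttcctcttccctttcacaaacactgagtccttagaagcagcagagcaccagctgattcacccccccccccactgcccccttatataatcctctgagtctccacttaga
Stat2: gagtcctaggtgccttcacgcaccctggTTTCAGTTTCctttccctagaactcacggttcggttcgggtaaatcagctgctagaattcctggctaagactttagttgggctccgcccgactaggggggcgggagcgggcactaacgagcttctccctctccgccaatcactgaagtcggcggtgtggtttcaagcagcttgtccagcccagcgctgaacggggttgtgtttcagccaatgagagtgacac
Cxcl10: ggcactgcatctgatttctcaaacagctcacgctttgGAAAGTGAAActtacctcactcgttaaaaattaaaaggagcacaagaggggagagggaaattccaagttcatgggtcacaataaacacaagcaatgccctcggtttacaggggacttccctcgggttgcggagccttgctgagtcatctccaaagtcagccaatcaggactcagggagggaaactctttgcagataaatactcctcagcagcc
Inhbb: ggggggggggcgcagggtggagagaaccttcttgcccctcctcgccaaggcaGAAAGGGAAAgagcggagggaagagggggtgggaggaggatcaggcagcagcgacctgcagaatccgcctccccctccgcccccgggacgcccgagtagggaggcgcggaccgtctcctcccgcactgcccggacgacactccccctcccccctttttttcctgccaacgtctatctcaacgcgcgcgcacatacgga
The first base of the core lay 156 and 122 bases before the start in *Ifit3*, 222 in *Stat2*, 213 in *Cxcl10* and 198 in *Inhbb*. A match to these letters is a description of the window and not evidence of binding.

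Genes of no interferon list that rose in the *Terf1* F/F line numbered 37 of the 54. The lists are not complete and leave out *Ube2l6*, the enzyme that conjugates ISG15. The 37 therefore cannot be taken as genes unrelated to interferon. *Lipg*, endothelial lipase, had 14.0, 13.4 and 14.3 CPM under GFP and 39.6, 38.9 and 34.5 CPM under Cre in *Terf1* F/F cells, and between 9.23 and 10.1 CPM in all 6 mutant libraries. No *Lipg* library of the mutant line moved away from the others, and the interaction of 1.46 ± 0.12 had an adjusted p of 1.74e-06, the smallest after *Terf1*. *Inhbb* (chromosome 1, 119415463 to 119422248), the activin B subunit, had 24.0, 21.0 and 20.7 CPM against 46.3, 43.1 and 40.8 CPM in *Terf1* F/F cells, and 9.50, 6.84 and 8.34 CPM against 6.23, 4.61 and 4.88 CPM in the mutant line. *Inhbb* was thus higher with Cre in one line and lower in the other in every library, with changes of 0.99 ± 0.14 and -0.65 ± 0.14 of which the second was not called (adjusted p = 0.0168), and its interaction was 1.63 ± 0.20. The gene listed as *Aim1* had 12.8, 11.98 and 12.2 CPM against 30.5, 26.0 and 27.4 CPM, and 16.6, 15.7 and 15.1 CPM against 14.4, 12.1 and 10.8 CPM, with an interaction of 1.52 ± 0.16. *Atf3*, a stress-induced transcription factor, had an interaction of 1.05 ± 0.14 and was the called member among 18 tested stress response genes. *Tacr2*, a tachykinin receptor, had 2.12 ± 0.40 but at a mean below 5 CPM in every group.

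**Figure D3:**
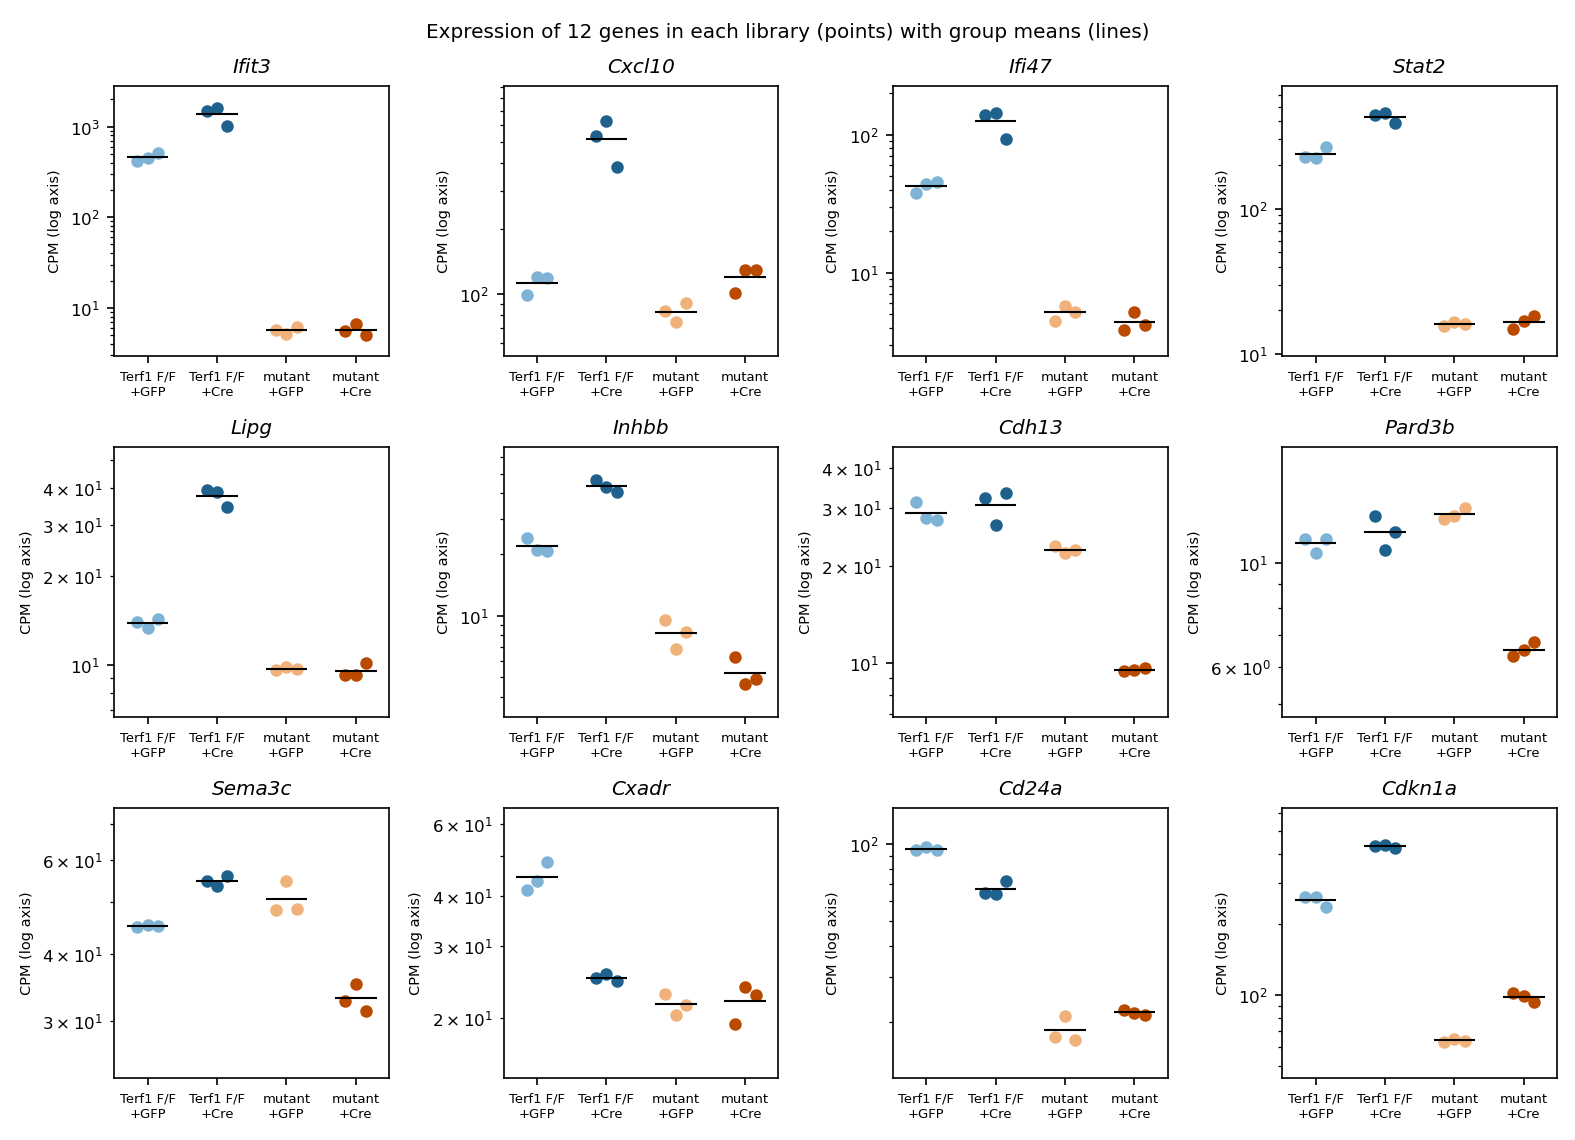
Expression in CPM (log axis) of 12 genes in the 3 libraries of each of the 4 groups, points being libraries and black lines group means. *Ifit3*, *Cxcl10*, *Ifi47*, *Stat2*, *Lipg* and *Inhbb* were higher with Cre in all *Terf1* F/F libraries, *Cdh13*, *Pard3b* and *Sema3c* were lower with Cre in all mutant libraries, *Cxadr* and *Cd24a* were lower with Cre in all *Terf1* F/F libraries, and *Cdkn1a* was higher with Cre in both lines.

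The other side of the interaction was a set of genes that Cre lowered in the mutant line and that were not called in the *Terf1* F/F line. *Cldn1*, a tight junction claudin, had 87.3, 89.9 and 86.4 CPM under GFP and 48.1, 58.7 and 54.0 CPM under Cre in the mutant line, and 1.55, 1.49 and 1.66 CPM against 2.15, 3.23 and 1.79 CPM in *Terf1* F/F cells. *Cldn1* was lower in all +Cre libraries of the mutant line (-0.71 ± 0.12) and higher in all those of the *Terf1* F/F line (0.61 ± 0.16, adjusted p = 0.0293, not called), and both parts enter its interaction of 1.33 ± 0.20. The remaining genes of this set were named after their values were seen. *Cdh13* (chromosome 8, 118140017 to 119324929), T-cadherin, had 22.98, 21.8 and 22.4 CPM against 9.45, 9.57 and 9.67 CPM in the mutant line, and 31.4, 28.0 and 27.7 CPM against 32.3, 26.6 and 33.5 CPM in *Terf1* F/F cells. The mutant groups were far apart relative to their spread and the *Terf1* F/F groups overlapped, with an interaction of 1.31 ± 0.13 (adjusted p = 3.7e-05). *Pard3b*, a cell polarity protein, had 12.4, 12.6 and 13.1 CPM against 6.31, 6.504 and 6.76 CPM in the mutant line, and between 10.48 and 12.5 CPM in all *Terf1* F/F libraries. *Prkg1*, a cGMP-dependent kinase, had 3.77, 4.26 and 4.09 CPM against 1.74, 2.16 and 1.67 CPM in the mutant line, and between 10.7 and 13.6 CPM in *Terf1* F/F cells. *Sema3c*, a secreted guidance cue, fell in the mutant line by 0.61 on the log2 scale and had 0.28 ± 0.07 in *Terf1* F/F cells (adjusted p = 0.015). *Dlg2*, a synaptic scaffold, was at 2.26, 2.71 and 2.26 CPM against 0.98, 1.25 and 1.06 CPM in the mutant line.

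These genes were long. Of the 17, 13 spanned at least 100 kb in the genome (76.5%), among them *Dlg2* at 1973 kb, *Prkg1* at 1201 kb, *Cdh13* at 1185 kb and *Pard3b* at 1004 kb, against 13.3% of all genes tested and 7.69% of those that rose in the *Terf1* F/F line. This pattern was looked for after the genes had been seen. Among all 134 tested genes of at least 500 kb, the median log2 fold change was -0.29 in the mutant line and 0.04 in the *Terf1* F/F line, and the median interaction was 0.30. Taken from same-numbered libraries, the median of these 134 genes was -0.20, -0.26 and -0.30 in the mutant line and 0.01, 0.03 and 0.01 in the *Terf1* F/F line, so that the lines did not overlap. For genes under 100 kb none of these medians exceeded 0.02 in either direction. Of the 78 genes called lower in the mutant line 45 spanned at least 100 kb (57.7%), and of the 105 called lower in the *Terf1* F/F line 20 did (19.05%). The mutant-line genes could be looked at in *Rtel1* F/F cells without the mutant. Those libraries do not enter the fold changes of the interaction. They did share in the estimate of spread, so the comparison was not independent. With the 12 libraries alone, 4 of the 17 genes were called. Cre in the *Rtel1* F/F cells changed 5902 genes (43% of those tested) and lowered 2887 (21%), and it lowered 15 of the 17, with a median of -1.36. *Fhl1*, a LIM-domain protein of muscle, was the exception that rose there (2.08), and *Fam84b* was not called. Of the 78 genes called lower in the mutant line, 69 were called lower in the *Rtel1* F/F cells. The lower level of long genes was not particular to the mutant line. In *Rtel1* F/F cells the 134 genes of at least 500 kb had a median log2 fold change of -0.70, below the -0.29 of the mutant line.

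**Figure D4:**
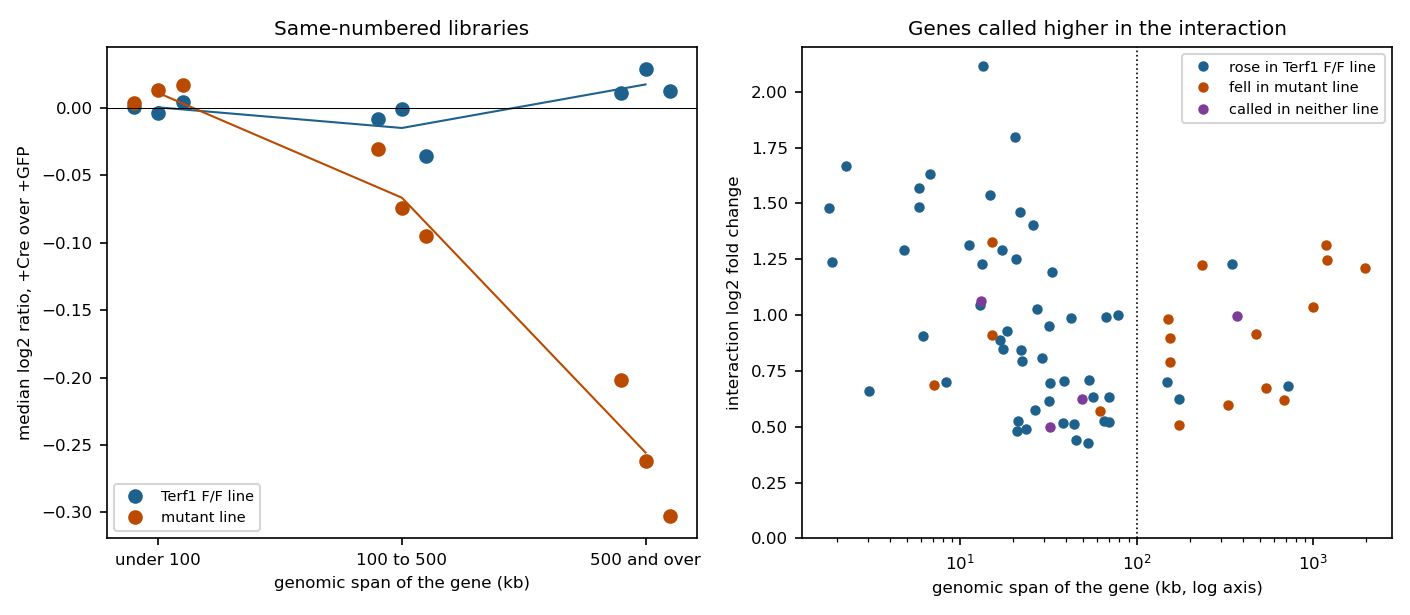
Left, the median log2 ratio of +Cre over +GFP in same-numbered libraries (y axis) for genes grouped by genomic span in kb (x axis), with a point for each replicate number and lines through the means. Right, the interaction log2 fold change (y axis) of the genes called higher against their span (x axis, log scale). On the left the mutant line falls to between -0.20 and -0.30 in the longest genes while the *Terf1* F/F line stays between 0.01 and 0.03, and on the right 13 of the 17 orange genes lie beyond the dotted line at 100 kb.

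The same Cre infection of *Rtel1* F/F cells gave a different picture for the interferon genes. Of the 17 list members called in the interaction, 11 were lower and 0 were higher by the test with Cre in those cells, with *Stat2* at -1.10, *Gbp2* at -1.95 and *Ifi47* at -1.82, while the mutant line had a median change of 0.11 and the *Terf1* F/F line of 1.37. The summed level of the interferon-stimulated genes in *Rtel1* F/F cells was between 1067 and 1221 TPM with GFP, above both mutant groups and below both *Terf1* F/F groups.

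Few genes were lower in the interaction. Besides *Terf1*, 5 genes fell in the *Terf1* F/F line, 1 rose in the mutant line and 3 were called in neither. *Cxadr* (chromosome 16, 78301226 to 78359785), the coxsackievirus and adenovirus receptor, had 41.4, 43.4 and 48.2 CPM against 25.1, 25.6 and 24.6 CPM in *Terf1* F/F cells and 22.9, 20.4 and 21.5 CPM against 19.3, 23.8 and 22.8 CPM in the mutant line, with an interaction of -0.84 ± 0.12 (adjusted p = 0.00117). *Cxadr* was lower in all *Terf1* F/F +Cre libraries and overlapped between the mutant groups. The +GFP and +Cre cells of both lines had all received an adenovirus, and a link of this gene to infection was not tested. *Cd24a*, a surface glycoprotein, had 94.5, 97.8 and 95.003 CPM against 64.4, 64.0 and 71.4 CPM, and 17.5, 21.2 and 17.1 CPM against 22.4, 21.8 and 21.4 CPM, and its interaction was -0.76 ± 0.11. *Cd59a*, a complement inhibitor, was the gene that rose in the mutant line, from 1.16, 1.17 and 1.00 CPM to 1.72, 2.31 and 2.21 CPM, and it stayed between 11.1 and 13.2 CPM in *Terf1* F/F cells (interaction -0.96 ± 0.17). *Ccbe1*, a matrix protein of lymphatic growth, moved in opposite senses without being called in either line, with -0.36 and 0.43 and an interaction of -0.79 ± 0.14. *Kcnab3*, *Gdpd1*, *Sgtb* and *Fblim1* had interactions between -0.76 and -0.50. *Rarb*, a retinoic acid receptor, had -1.60 ± 0.30 at a mean below 5 CPM in every group.

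Cre also changed a shared set of genes. Of the tested genes, 39 were called in both lines, 28 higher in both and 11 lower in both, and 0 of these were called in the interaction, whose values ran from -0.44 to 1.02. Of the 39, 13 had an unadjusted interaction p under 0.05 (33.3%), so that equal change in both lines was not shown. This set was chosen after its values were seen. In *Rtel1* F/F cells without the mutant, 22 of the 28 were called higher with Cre and 10 of the 11 lower. Over all genes tested 43% were called in those cells, and 21% were called lower. Every +Cre group of the series carried a floxed telomere gene, so exposure to Cre and loss of the gene cannot be told apart. *Cdkn1a* (chromosome 17, 29090979 to 29100722), the p21 inhibitor of cyclin-dependent kinases and a p53 target, had 261, 261 and 238 CPM against 432, 438 and 422 CPM in *Terf1* F/F cells and 63.3, 64.9 and 64.0 CPM against 102, 98.9 and 93.7 CPM in the mutant line. *Cdkn1a* separated by infection in both lines, by 0.77 ± 0.05 and 0.62 ± 0.06, and its interaction was 0.15 (95% interval -0.01 to 0.31). *Mdm2*, which degrades p53, rose by 0.80 and 0.48 with an interaction interval of 0.09 to 0.55, and *Ccng1*, another p53 target, rose by 0.81 and 0.59 with an interval of -0.02 to 0.47. *Eda2r* and *Perp*, death receptor and apoptosis effector, rose by 1.02 and 1.52 in *Terf1* F/F cells and by 0.74 and 0.75 in the mutant line. Over 24 tested p53 targets, 9 rose in the *Terf1* F/F line and 5 in the mutant line, 0 were called in the interaction by edgeR and 2 by DESeq2, and the median interaction was 0.25. An unadjusted interaction p under 0.05 was found for 8 of the 24 (33.3%), against 10.3% of all genes tested. *Ccl5*, a chemokine, rose in both lines, by 2.20 and 1.18, with an interaction of 1.02 (95% interval 0.53 to 1.52, adjusted p = 0.0329). Of the shared genes that fell, *Gas1*, a growth arrest protein, had -0.53 in *Terf1* F/F cells and -0.90 in the mutant line.

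**Figure D5:**
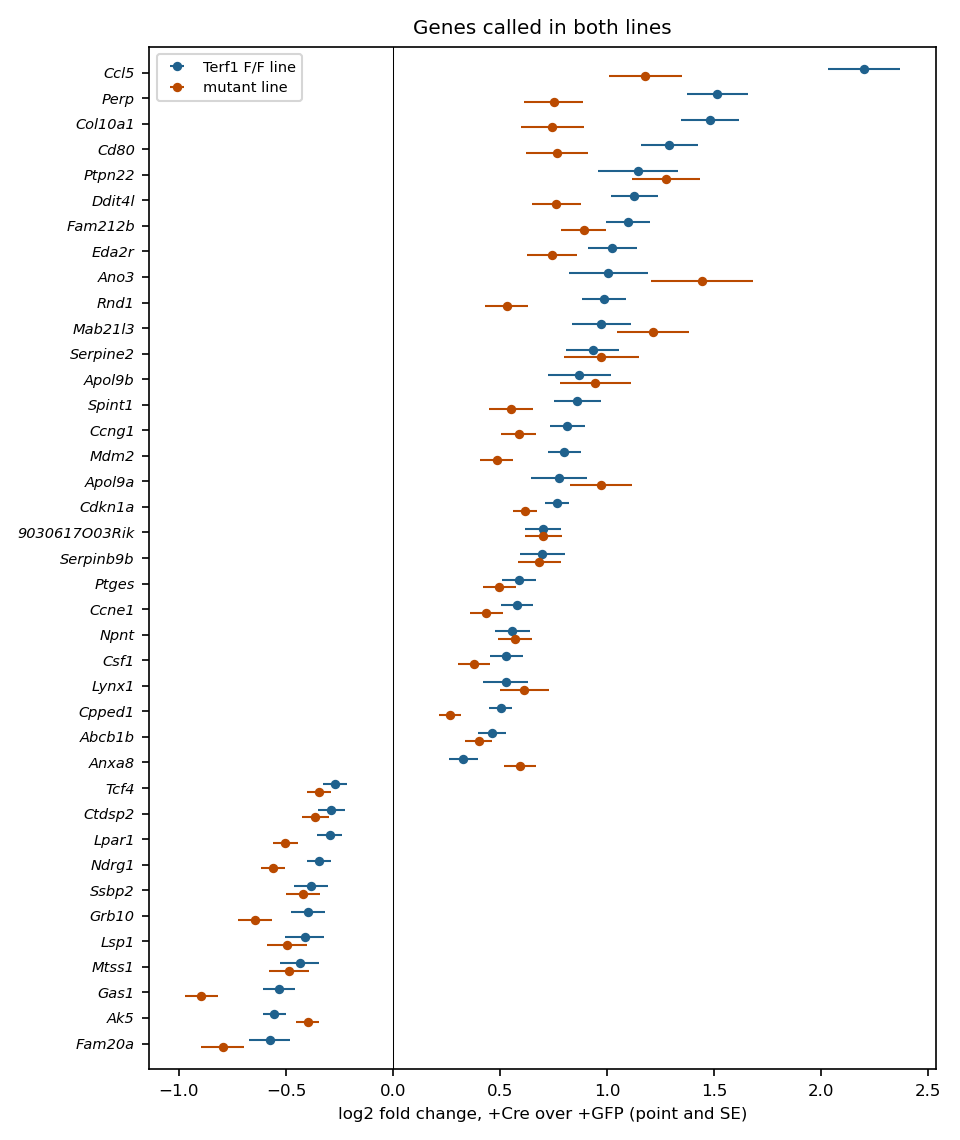
Log2 fold change of +Cre over +GFP with its SE (x axis) for the 39 genes called in both lines (rows), in the *Terf1* F/F line (blue) and the mutant line (orange). All 28 genes in the upper rows are above 0 in both lines and all 11 in the lower rows are below 0 in both, with *Ccl5* at 2.20 and 1.18 at the top.

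Lists of the cell cycle, genome maintenance and cholesterol synthesis held no edgeR call in the interaction, a count to be read against the 0.62% called over all genes. None of 43 tested DNA replication genes, 28 mitosis genes, 36 DNA damage response genes or 19 cholesterol synthesis genes was called, with median interactions of 0.02, -0.02, 0.00 and -0.20, and 1 (2.33%), 1 (3.57%), 3 (8.33%) and 6 (31.6%) of them respectively had an unadjusted p under 0.05, against 1416 of all genes tested (10.3%). In the *Terf1* F/F line 0 replication and 0 mitosis genes were called, and in the mutant line 0 and 1. Of 25 tested telomere genes *Terf1* was the one called, and *Terf2*, the other duplex-binding shelterin protein, had an interaction of -0.06 ± 0.13. Among 43 matrix and growth factor genes, *Timp3*, a metalloproteinase inhibitor, was called (0.62 ± 0.12), with 255, 268 and 272 CPM against 323, 338 and 284 CPM in *Terf1* F/F cells and 112, 132 and 126 CPM against 91.7, 100.4 and 93.6 CPM in the mutant line. *Fhl1* was the called member of 21 contractile and YAP/TAZ genes (0.57 ± 0.10), with between 31.9 and 35.8 CPM against between 21.9 and 22.3 CPM in the mutant line. Of 22 tested marker genes, those of other cell types included, 0 were called in the interaction. Summed endothelial markers, low throughout, were between 0.92 and 1.01 TPM in *Terf1* F/F +GFP and between 1.53 and 1.76 TPM in *Terf1* F/F +Cre libraries, and between 0.14 and 0.42 TPM in all mutant libraries. Summed epithelial markers were between 2.77 and 3.91 TPM against between 4.77 and 6.58 TPM in *Terf1* F/F cells, where the ranges were apart, and between 6.69 and 10.49 TPM against between 9.30 and 14.57 TPM in the mutant line, where they overlapped. The part of these markers in the results was not tested.

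Of 4 further genes of the named-gene rule, edgeR called 0 and DESeq2 called 2 in the interaction at the same threshold. *Bmp4*, a morphogen, had 15.4, 15.3 and 14.1 CPM against 17.2, 17.7 and 13.5 CPM in *Terf1* F/F cells and 4.82, 4.02 and 4.04 CPM against 2.53, 2.36 and 2.68 CPM in the mutant line, an interaction of 0.88 ± 0.27 (adjusted p = 0.152). The mutant groups of *Bmp4* did not overlap and the *Terf1* F/F groups did. *Adam22*, a synaptic receptor, rose in the mutant line from 0.861, 0.651 and 0.708 CPM to 1.39, 2.01 and 1.67 CPM, with an interaction of -1.38 ± 0.28 (edgeR adjusted p = 0.0134), and DESeq2 gave it an adjusted p of 0.000293. *Dapk1*, a death-associated kinase, rose in *Terf1* F/F cells by 0.77 ± 0.14 and had 0.02 ± 0.11 in the mutant line, with an interaction of 0.75 ± 0.18 (adjusted p = 0.0508). *Bcl6*, a transcriptional repressor, had an interaction of 0.42 ± 0.10 (edgeR adjusted p = 0.0461), and DESeq2 gave it an adjusted p of 0.00261.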

How the data were processed

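RNA-seq libraries of MEFs were compared between *Terf1* F/F and RTEL1 C1252A/C1255A cells, with groups taken from the labels. The authors used cutadapt 1.9.1 for trimming and STAR 2.5.2a for alignment to mm10 and deposited, for 24454 RefSeq genes, the expected counts that RSEM 1.3.0 estimated with strand, without normalization, 0 of which were not whole. The authors also deposited TPM values, used here for levels between genes. The submitters' processing notes name DESeq2 1.28.0.

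Rounded expected counts were fitted in R 4.3.3 with edgeR 4.0.16 (TMM, filterByExpr by group, robust quasi-likelihood fit, 1 coefficient per group over all 21 libraries, 14 residual degrees of freedom, two-sided quasi-likelihood tests, Benjamini-Hochberg adjustment over 13719 genes, an adjusted p up to 0.01 counting as a call). The scripts were tested on simulated data. SEs are the absolute log2 fold change divided by the square root of F. CPM and log2 values use TMM library sizes, with a prior count of 2 for log2 CPM. Total counts bound the precision, and counting intervals cover counting error only.

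Genes were named by rule: *Terf1* and *Rtel1*, the 12 called genes each way with the largest interaction among those with a mean of at least 5 CPM in 1 or more groups (9 were eligible for lower), list members called, genes called in both lines in opposite directions, and *Bmp4*, *Adam22*, *Dapk1* and *Bcl6*. A result that these rules name is not reported here, though it is counted. Members and lists were chosen with earlier results of these data known. Genes were matched to RefSeq GRCm38.p6 by symbol (13135) or a single synonym (546), and 38 had no match. Alternatives were DESeq2 1.42.0, its size factors, other filters, samples, thresholds and replicate blocks, and each library left out.

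Same-numbered libraries were checked for pairing by correlating their deviations from group means over 11840 genes. The correlations were 0.864, 0.839 and 0.424 for the pairs of the mutant line, where pairing was taken to hold from the data (all above 0.1), and 0.552, 0.358 and -0.0998 in *Terf1* F/F cells, where it was not. The main fit held no replicate term, and fits with replicate blocks were among the alternatives. Between the lines the correlations of same-numbered libraries were 0.832, 0.361 and 0.261 with GFP, also all above 0.1. With Cre they were 0.495, 0.441 and 0.0525. Whether the replicate numbers mark a batch was not tested. Figures were drawn with matplotlib 3.10.9.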

Additional observations from a re-analysis of the deposited data

Results flagged for a closer look

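A test of the difference between the lines marked 33 of the named genes, since their log2 change with Cre differed between the *Terf1* F/F and the mutant line (edgeR's quasi-likelihood test, adjusted p of at most 0.01). Among the interferon lists the differences were 1.80 for *Ifi47*, 1.67 for *Cxcl10*, 1.57 for *Ifit3*, 1.54 for *Oasl1*, 1.48 for both *Ifit3b* and *Ccl7*, 1.40 for *Ifit2*, 1.29 for *Gbp2*, 1.24 for *Ccl2*, 1.03 for *Znfx1*, 0.95 for *Parp12*, 0.80 for *Stat2*, 0.70 for both *Adar* and *Irf1*, 0.66 for *Psme1* and 0.48 for *Trim25*. Outside them they were 1.63 for *Inhbb*, 1.52 for *Aim1*, 1.46 for *Lipg*, 1.33 for *Cldn1*, 1.31 for *Ube2l6*, 1.05 for *Atf3*, 0.62 for *Timp3* and 0.57 for *Fhl1*. The negative differences were -0.50 for *Fblim1*, -0.60 for *Sgtb*, -0.62 for *Gdpd1*, -0.76 for both *Kcnab3* and *Cd24a*, -0.79 for *Ccbe1*, -0.84 for *Cxadr*, -0.96 for *Cd59a* and -8.72 for the deleted *Terf1*, whose size depends on the prior count.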

How the results depend on the processing

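The 85 interaction calls (75 higher, 10 lower, 17 in the interferon lists), 469 calls in the *Terf1* F/F line, 150 in the mutant line and 39 in both lines depended on the settings, while all 85 genes kept their sign in every setting run and none had an adjusted p above 0.0738. DESeq2 called 189 in the interaction (161 higher, 28 lower, 35 interferon), 337 in the mutant line and 85 in both. A fit of the 12 libraries alone, which leaves fewer residual degrees of freedom, called 11 (10 higher, 1 lower, 2 interferon). A replicate block shared over the lines called 157 (133, 24, 27), 757, 289 and 76, and a replicate block within each line called 116 in the interaction, 215 in the mutant line and 61 in both. An adjusted p of at most 0.05 gave 195 (155, 40, 35), 872, 416 and 123. An absolute log2 fold change of at least 1 gave 31 (29, 2, 10), 175, 30 and 3, with 3427 for the difference between lines with GFP, 3503 for the difference between lines with Cre and 1693 for the Cre effect in Rtel1 line cells. With no filter on low counts 4 genes were lower. Leaving out 1 library gave 27 to 89 interaction calls (25 to 85 higher, 2 to 13 lower, 10 to 28 interferon), 282 to 500 in the *Terf1* F/F line, 52 to 149 in the mutant line and 17 to 40 in both, and 0.237 to 0.374 for the median interaction of genes of at least 500 kb. The interaction fell to 54 and 41 without mutant +Cre replicates 2 and 3, to 51, 58 and 40 without mutant +GFP replicates 1, 2 and 3, to 31 and 34 without *Terf1* F/F +Cre replicates 1 and 2, and to 48, 27 and 51 without *Terf1* F/F +GFP replicates 1, 2 and 3. The cause was not tested. The median SE of 0.17 limits what the interaction can show.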
